A study of Schizosaccharomyces pombe with 7 samples.

Results

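The incorporation of newly made histone H3 was compared between fission yeast (Schizosaccharomyces pombe) lacking both Fft3 and Clr3 and wild type. The comparison used 4 of the 7 arrays of the study: the only array of the double deletion and the 3 wild-type arrays. Wild type 3 shared a slide with the double mutant and was its direct reference. Wild types 1 and 2, on the other slides, gave the spread between arrays of one genotype. The clr3 deletion array, also on the slide of the double mutant, is given beside them.

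Each array measured H3-FLAG chromatin immunoprecipitation (ChIP) DNA in red against input DNA in green on 60-base probes. The groups were wild-type (3 arrays), fft3_delta clr3_delta (1 array, called double mutant here) and clr3_delta (1 array), and the tagged histone was carried by all of them. The cells grew in minimal medium at 30 °C, were blocked with 15 mM hydroxyurea for 4 h, and then spent 2 h in hydroxyurea with 4% sucrose in place of 8% glucose to switch on H3-FLAG. The signal therefore reports H3 assembled into chromatin within the induction, in cells held in hydroxyurea to block DNA replication. How complete the block was is not measured here, so H3 assembled during any remaining replication is not set apart.

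Nucleosome turnover is the exchange of old histones for new ones outside DNA replication, and it is usually fast at active promoters and slow in heterochromatin. Fft3 belongs to the Snf2 family of ATP-dependent remodellers. Clr3 is the histone deacetylase of SHREC, a complex that keeps heterochromatin silent at centromeres, the mating-type locus and subtelomeres. In fission yeast these domains carry methylated H3 lysine 9 bound by HP1-type proteins, whereas the central core of a centromere carries nucleosomes with the variant Cnp1 in place of H3.

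The values below are log2 ratios of ChIP to input, with the median probe of each array set at 0, so they give the distribution of new H3 along the probed DNA and not its total amount. A difference is the double mutant minus wild type 3. With 1 mutant array there was no test, since an exact permutation of 1 array against 3 cannot give a p below 0.25, and all differences are descriptions of these arrays. Whether the wild-type arrays hold separate cultures is not said in the labels, so their spread may be technical. In DNA from a whole culture, more exchange in every cell and exchange in more of the cells cannot be told apart. The fft3 and clr3 genes lay outside the probed stretches that were used, so the deletions themselves were not checked. The double mutant array had 929 marked spots (2.11% of its probes), against 4 to 312 on the wild-type arrays. Its noise between neighbouring probes had an SD of 0.16, against 0.14 to 0.15 in wild type.

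The largest differences among the regions lay over the outer repeats of centromere 2 (chrII:1602411-1643870, reference ASM294v3), the inverted repeats that flank the central core and are packed into heterochromatin. Over 590 probes their mean was −1.43, −1.47 and −1.31 on wild types 1, 2 and 3. It was 0.60 on the double mutant array and −0.19 on the clr3 deletion array. The double mutant thus stood above the median of its own array where wild type stood well below it. The difference was 1.91, or 3.75-fold, against an SD of 0.08 over the wild-type arrays (n = 3), and it was the same on the left (1.91) and right (1.91) repeats. All 28 stretches of 1 kb lay above the 3 wild-type arrays, with differences between 1.67 and 2.17. The ChIP signal alone was 1.46 above wild type 3, and the input signal was 0.49 below it. Against wild type 1, whose input there was lower than that of wild type 3, the ChIP signal alone was 2.24 higher.

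The difference dropped sharply at the edges of the repeats. In the tRNA gene clusters that bound the repeats on the outside, the double mutant was at −0.48 and wild type at −0.68, −1.10 and −0.68. In the tRNA-containing borders between the repeats and the core, the double mutant was at −0.48 against −0.70, −1.35 and −0.74. Both lay above the wild-type range, by 0.21 and 0.26 relative to wild type 3, far less than the neighbouring repeats. Outside the clusters some 1-kb steps differed by more than the clusters did. The difference was 0.45 at 33 to 32 kb left of the middle of the core and 0.37 at 29 to 30 kb right of it. Steps further out also went the other way, with −0.32 at 59 to 58 kb left and −0.51 at 55 to 56 kb right.

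Of the outer-repeat probes 94.2% have a copy elsewhere in the reference, so they read several repeats at once. The noncoding RNA gene SPNCRNA.5275 (chrII:1638712-1639597, minus strand) showed the largest rise of all genes and serves as the example. Its first 200 bases (chrII:1639398-1639597, minus strand) are printed from RefSeq (ASM294v3) to show the sequence that carried the rise, with no capitals.
SPNCRNA.5275: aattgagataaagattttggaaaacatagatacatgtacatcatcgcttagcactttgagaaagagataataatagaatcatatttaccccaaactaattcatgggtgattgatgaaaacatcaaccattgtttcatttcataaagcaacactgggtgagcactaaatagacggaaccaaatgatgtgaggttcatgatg
The whole gene of 886 bases occurs 4 times in the reference, 2 times on chromosome II and 2 times on chromosome III. The copy in the left repeats of centromere 2 runs the other way and overlaps SPNCRNA.360 and SPNCRNA.5255, and 200 of its 200 bases equal the printed stretch. The printed stretch itself occurs 2 times on chromosome I, 2 times on II and 6 times on III. With probes found once in the reference only, the outer repeats differed by 1.58.

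SPNCRNA.5275 stood at −1.43, −1.27 and −1.23 on wild types 1 to 3, at 0.05 on the clr3 deletion array and at 0.92 on the double mutant array. Its rise of 2.16 is a 4.46-fold difference. The gene was chosen by the size of this rise, so its distance from wild type was set by the choice. SPNCRNA.360 and SPNCRNA.5255, which share its sequence, rose by 2.11 and 2.12 and cannot be separated from it. The next largest rises were SPNCRNA.5261 at 2.13, SPNCRNA.5276 at 2.12 and SPNCRNA.373 at 2.09. These genes lie in both arms of the repeats and overlap or neighbour one another, so they are not separate observations.

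**Figure D1:**
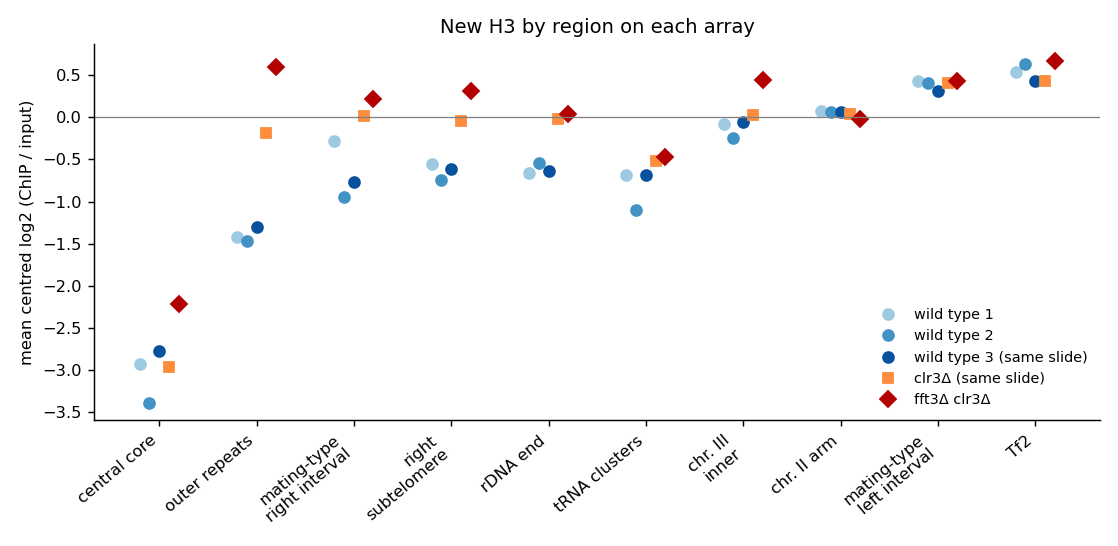
Mean centred log2 ratio of ChIP to input (vertical axis) in each region (horizontal axis) on the 3 wild-type arrays (blue circles), the clr3 deletion array (orange squares) and the double mutant array (red diamonds), with no error bars. The double mutant is above the 3 wild-type arrays in every region shown except the chromosome II arm, and the gap is widest at the outer repeats (0.60 against −1.47 to −1.31).

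The central core of centromere 2 (chrII:1619261-1629170), where Cnp1 nucleosomes are found, kept its place as the region poorest in new H3. Its mean was −2.93, −3.39 and −2.77 in wild type, −2.97 in the clr3 deletion and −2.22 in the double mutant. The difference of 0.55 lay above the wild-type range, whose SD was 0.32. The sign was not stable to background correction: after normexp correction the core differed by −0.80, and after quantile normalization by 0.016. The ChIP signal of the core was far below the array median in wild type 3 (−4.62), where a small background weighs most.

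Over the right subtelomere of chromosome II (chrII:4489801-4539760) the mean over 999 probes was −0.55, −0.74 and −0.61 in wild type. It was −0.04 in the clr3 deletion and 0.32 in the double mutant. The difference of 0.93 is 1.91-fold, against a wild-type SD of 0.10. Of the probes 91.3% were higher than on wild type 3, and the ChIP signal alone was 1.27 higher. It was 1.16 above wild type 1 and 1.14 above wild type 2, so the direction was the same against each array.

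The difference was not even along the subtelomere. From the chromosome end inward, the 10-kb stretches differed by 0.97, 1.37, 1.22, 0.68 and 0.42. Of 50 stretches of 1 kb, 45 lay above all 3 wild-type arrays, and the largest difference was 1.79. The remaining 5 lay next to one another, between 38 and 43 kb from the end, where wild type 3 had its highest values of the subtelomere (0.13 to 0.59). In these 5 the double mutant was below wild type 3, and in 4 of them it was within the wild-type range. In the stretch 41 to 42 kb from the end, wild type stood at 0.41, 0.53 and 0.59 and the clr3 deletion at 1.12. The double mutant stood there at 0.28, below each of the other arrays. The spread over the 1-kb stretches was an SD of 0.30 in the double mutant, against 0.35 to 0.45 in wild type.

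**Figure D2:**
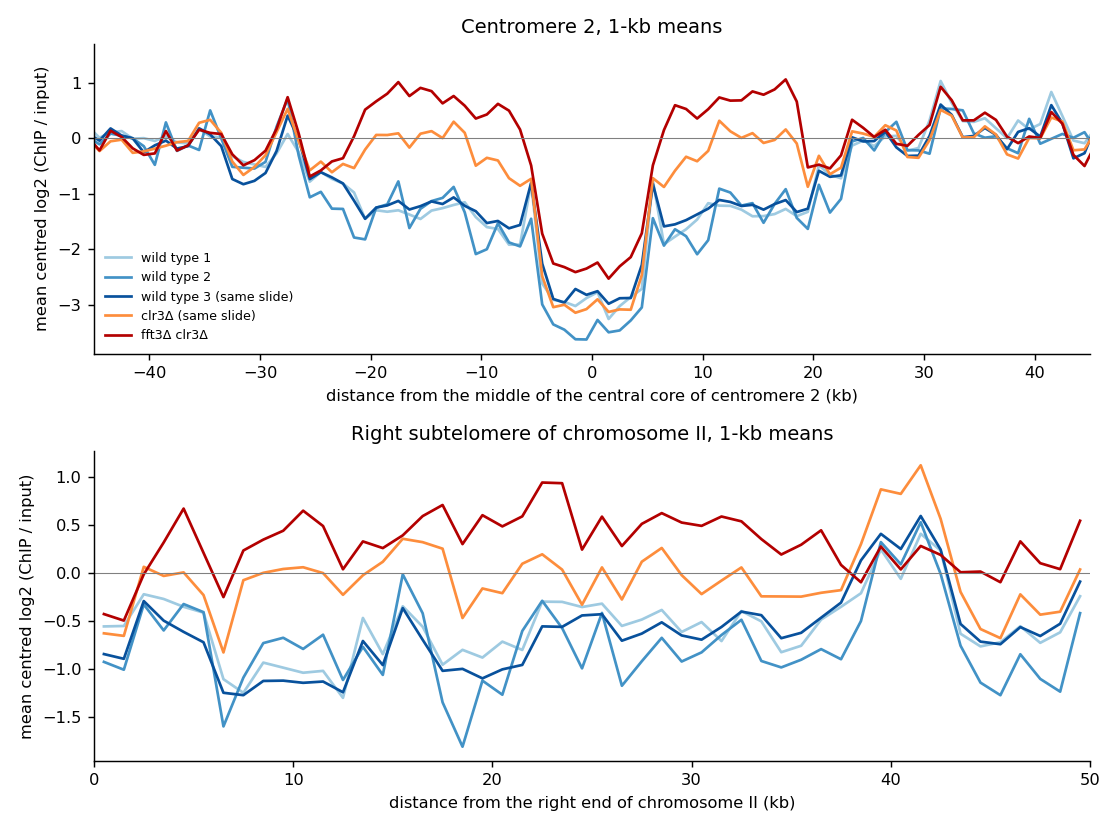
Centred log2 ratio of ChIP to input in 1-kb means (vertical axes) against distance in kb from the middle of the central core of centromere 2 (top) and from the right end of chromosome II (bottom), with 1 line per array. The double mutant line is above 0 across both outer repeats and over most of the subtelomere, and drops to the level of the wild-type lines 38 to 43 kb from the chromosome end, with 0.28 against 0.41 to 0.59 in the stretch at 41 kb.

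A gene was counted as risen or fallen where the mean of its probes (at least 2) differed by at least 0.5 from wild type 3 and lay outside the range of all 3 wild-type arrays. Among 2219 genes, 107 rose in the double mutant (4.82%) and 62 fell (2.79%). With wild type 1 in place of the mutant, 8 genes were higher (0.361%) and 1 lower (0.0451%). With wild type 2 in its place, 64 were higher (2.88%) and 79 lower (3.56%). The clr3 deletion had 82 higher (3.7%) and 2 lower (0.0901%). These comparisons share wild type 3. The counts depended on the processing: the count of genes lower was 102 with normexp correction and 4 at a difference of at least 1, and the count of genes higher was 32 with probes found once and 68 at a difference of at least 1.

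Where the genes lay differed between the directions. Of the 2219 genes, 2043 were on the chromosome II arm. All 62 falls were there, which is near the share of all genes. Of the 107 rises 6 were there, which is far from it. In the outer repeats 35 of 35 genes rose, with a median difference of 1.88. In the subtelomere 38 of 48 rose, with a median of 0.94, against a median of −0.05 over all genes. The ChIP signal alone was higher than on each of the 3 wild-type arrays in 35 of the 35 outer-repeat genes and in 37 of the 38 subtelomeric genes that rose. The input signal was lower than on wild type 3 in 33 of the outer-repeat genes, so part of their ratio against that array came from the input channel.

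In the subtelomere the pseudogene SPBCPT2R1.06C had the largest rise. It stood at −0.75, −0.97 and −1.07 in wild type, at −0.08 in the clr3 deletion and at 0.70 in the double mutant, a difference of 1.77. The noncoding genes SPNCRNA.6643 and SPNCRNA.6642, which overlap it, rose by 1.76 and 1.66. The helicase gene tlh2, a RecQ-type helicase gene of the subtelomere that heterochromatin normally silences, stood at −1.09, −0.85 and −1.17 in wild type over 120 probes. It was at −0.04 in the clr3 deletion and 0.37 in the double mutant, a rise of 1.54 or 2.91-fold. The noncoding genes within tlh2, SPNCRNA.6648, SPNCRNA.6649 and SPNCRNA.6650, rose by 1.65, 1.64 and 1.56. At the inner end, the galactokinase gene gal1 rose by 0.79, from −0.23, 0.17 and −0.01 in wild type to 0.78. The gene SPBPB2B2.16C, in the stretch rich in new H3, did not rise: it was at 0.26, 0.35 and 0.46 in wild type, 1.04 in the clr3 deletion and 0.14 in the double mutant.

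The silent mating-type region was read with reservations. Its right interval, from rpp202 to emc3 (chrII:2128461-2138320), averaged −0.28, −0.95 and −0.77 in wild type, 0.01 in the clr3 deletion and 0.22 in the double mutant. The difference was 0.99 against wild type 3 and 0.50 against wild type 1, with a wild-type SD of 0.34. The input signal 17 to 18 kb from mat1 was near −7 on wild type 2 (−7.09), wild type 3 (−6.99) and the clr3 deletion (−7.05), but −0.99 on wild type 1 and −0.86 on the double mutant. The input DNA thus differed between arrays of one genotype at that place, and its part in the ratio was not tested beyond leaving those probes out. Without the 26 probes of low wild-type input, a choice made after seeing the data, the difference was 1.07. The left interval, nearer mat1, differed by 0.12.

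All 7 genes measured in the right interval rose in the double mutant, 6 were higher in the clr3 deletion and 4 were higher on wild type 1 than on wild type 3. Over all genes these shares were 4.82%, 3.7% and 0.361%. The rises were led by the noncoding genes SPNCRNA.5506 at 1.43 and SPNCRNA.389 at 1.39. SPNCRNA.5506 stood at −0.48, −1.42 and −1.21 in wild type, 0.35 in the clr3 deletion and 0.22 in the double mutant. Of the mating-type genes, 4 of 8 listed were measured and 4 rose, against 4.82% of all genes. The rises were 0.96 at mat3-Mi, 0.90 at mat1-Mi, 0.71 at mat3-Mc and 0.68 at mat1-Mc. The M genes at mat1 and mat3 encode the minus mating-type regulators and have near-identical sequence, so probes cannot separate the active copy from the silent one. The rises at mat1 and mat3 are therefore not separate observations. The input of these genes differed from wild type 3 by between −0.43, at mat3-Mc, and −0.30, at mat1-Mi. Against wild type 1 the ChIP signal of mat1-Mc and mat3-Mc alone differed by −0.04 and −0.02. rpp202, a ribosomal stalk protein gene at the edge of the interval, rose by 0.57.

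Ribosomal DNA was probed at one end of chromosome III (chrIII:1-23120). The ratio was −0.66, −0.55 and −0.64 in wild type, −0.02 in the clr3 deletion and 0.04 in the double mutant, a difference of 0.68. With loess normalization the difference was 0.15. Both channels moved: the input signal of the double mutant was 5.92 times that of wild type 3, and its ChIP signal was 3.29 higher on the log2 scale. The input of wild type 3 was itself lower than that of wild types 1 and 2, at −0.17 against 1.12 and 0.84. More ribosomal DNA in the culture and a different recovery of it cannot be told apart from the input. Of 15 genes 8 rose, against 4.82% of all genes. All of the 8 were long noncoding RNA genes, led by SPNCRNA.6667 at 1.52. With wild type 2 in place of the mutant, 4 of the 15 were higher and 4 lower, and the clr3 deletion had 11 higher. SPNCRNA.6667 stood at −0.31, −0.44 and −0.43 in wild type, 0.54 in the clr3 deletion and 1.09 in the double mutant. None of the 7 rRNA genes rose, and their differences ran from −0.05 to 0.56.

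The subtelomeric stretch of chromosome III lies inward of the ribosomal DNA (chrIII:23111-49970), and the placing of probes on this chromosome is weak. It averaged −0.08, −0.24 and −0.05 in wild type and 0.44 in the double mutant. The difference was 0.50 against wild type 3, above the whole wild-type range, while the clr3 deletion stood at 0.03. Here 8 of 26 genes rose in the double mutant, and 1 was counted as higher in the clr3 deletion. Over all genes these shares were 4.82% and 3.7%. The noncoding gene SPNCRNA.1095 rose by 0.92, from −0.44, −0.52 and −0.32 in wild type to 0.60, with the clr3 deletion at 0.28. Its probes are all repeated and its input was 2.64 above wild type 3, as in the neighbouring ribosomal DNA. nic1, the nickel transporter gene, rose by 0.54, from −0.05, −0.24 and −0.22 to 0.33, with the clr3 deletion at −0.24. Its ChIP signal alone was 0.56, 0.51 and 0.54 above wild types 3, 1 and 2, and its input differed from wild type 3 by −0.02.

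The Tf2 retrotransposons, Tf2-9 and Tf2-10, stood at 0.53, 0.63 and 0.43 in wild type and 0.67 in the double mutant. The difference of 0.24 rested on the input, which was 0.50 lower than on wild type 3, whereas the ChIP signal alone was 0.22 lower. After loess normalization the difference at Tf2 was −0.39. The 16 solitary LTRs of the arm, left over from such elements, differed by −0.15 and lay inside the wild-type range.

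The chromosome II arm, 39349 probes of mostly euchromatic genes, averaged 0.07, 0.07 and 0.06 in wild type, 0.03 in the clr3 deletion and −0.01 in the double mutant. Because each array is centred on its own median, the rise of the heterochromatic probes moves the arm down by construction: with the arm median set at 0 the arm difference was −0.024 in place of −0.07. The size of the shift was therefore not read as a loss. What differed on the arm was its contrast between rich and poor stretches.

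The slope of the double mutant on wild type 3, over arm probes, was 0.62 with a correlation of 0.71. The slope of wild type 1 on wild type 3 was 0.81, that of wild type 2 was 0.84 and that of the clr3 deletion was 0.86. Over 1968 windows of 1 kb, where probe noise is averaged out, the slope was 0.61 in the double mutant, 0.92 in the clr3 deletion, 0.87 in wild type 1 and 0.92 in wild type 2. The spread of these windows had an SD of 0.27 in the double mutant and of 0.33, 0.41 and 0.34 in wild types 1 to 3. Noise in wild type 3 lowers every slope on it, and probes and windows are not replicates.

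Against the other wild-type arrays, the arm slope of the double mutant over probes was 0.59 on wild type 1 and 0.42 on wild type 2. Wild type 1 on wild type 2 also had a low slope, 0.52, and wild type 2 spread more than the other arrays. Over all probes the slope on wild type 3 was 0.41, against 0.69 for the clr3 deletion, 0.85 for wild type 1 and 0.98 for wild type 2. Over the 1758 probes of the heterochromatic regions it was −0.04 with a correlation of −0.05. There the probes of the double mutant no longer followed the order of wild type 3, while wild types 1 and 2 had slopes of 0.92 and 0.99 and the clr3 deletion 0.42.

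The arm windows were also split by their wild-type level. Among the 1051 windows where the mean of wild types 1 and 2 was above 0, the slope on wild type 3 was 0.51 in the double mutant, 0.89 in wild type 1, 0.71 in wild type 2 and 0.87 in the clr3 deletion. Among the 917 windows below 0 it was 0.55, 0.59, 0.38 and 0.70 in the same order. The split was made on wild types 1 and 2, which by itself lowers their slopes within each part. Their slopes are therefore no measure for the double mutant here. The clr3 deletion was not used for the split, and the double mutant had a lower slope than it in both parts. Arm windows of 1 kb were placed in 10 equal bins by the mean of wild types 1 and 2, which the difference from wild type 3 does not use. In the lowest bin (197 windows) the double mutant was at −0.34 and wild type 3 at −0.37, a difference of 0.04. In the highest bin (197 windows) wild types 1 to 3 stood at 0.71, 0.85 and 0.69, the clr3 deletion at 0.70 and the double mutant at 0.36. That difference was −0.33, with 89.3% of the windows lower than on wild type 3. The clr3 deletion differed by 0.01 and wild type 2 by 0.16 in the same bin. Wild type 2 took part in the binning, which raises its value there.

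The choice of wild-type array did not change the sign in the highest bin. With windows binned by wild type 2 alone, the double mutant in the top bin was −0.29 from wild type 1 and −0.30 from wild type 3. Both channels took part to a degree that depended on the reference. In the highest bin by wild types 1 and 2, the input of the double mutant was 0.21 above wild type 3, but 0.04 above wild type 1 and 0.03 above wild type 2. Its ChIP signal alone was −0.08 against wild type 3, −0.29 against wild type 1 and −0.42 against wild type 2. Wild types 1 and 2 also made these bins, which enlarges the differences from them. With windows binned by wild type 2 alone, the ChIP signal in the top bin was −0.26 against wild type 1. With windows binned by wild type 1 alone, it was −0.35 against wild type 2.

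**Figure D3:**
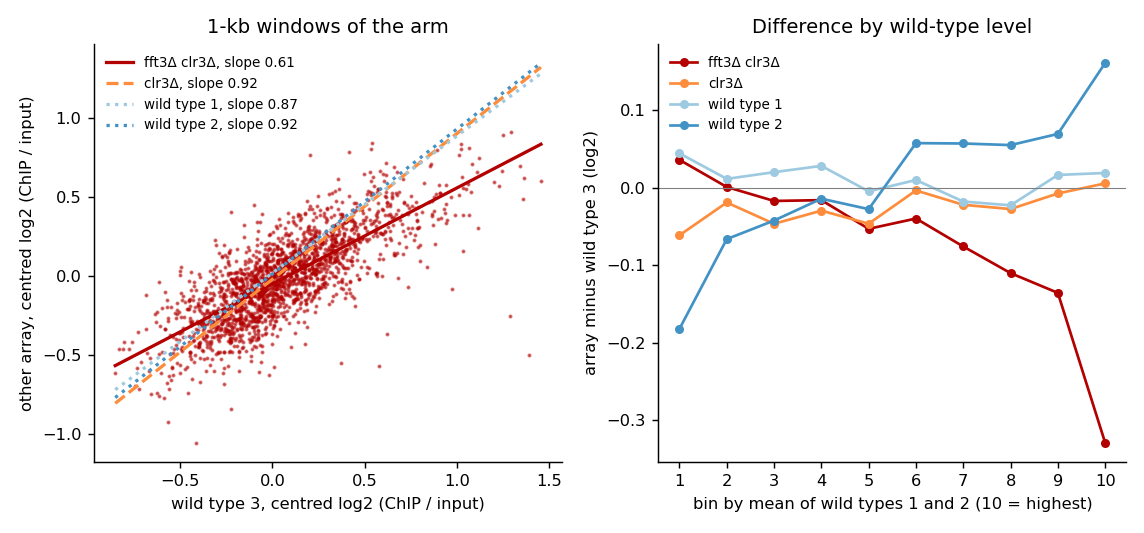
Left, each point is a 1-kb window of the chromosome II arm with its centred log2 ratio on wild type 3 (horizontal axis) and on the double mutant array (vertical axis), and lines are least-squares fits for each array. Right, mean difference from wild type 3 on the log2 scale (vertical axis) in 10 bins by the mean of wild types 1 and 2 (horizontal axis). The double mutant has the shallowest line (slope 0.61 against 0.87 to 0.92) and drops to −0.33 in the highest bin.

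On the arm 62 of 2043 genes fell and 6 rose in the double mutant. With wild type 2 in place of the mutant, 58 arm genes were lower and 58 higher, so a wild-type array gave nearly as many falls, and far more rises. The difference of wild type 2 from wild type 3 correlated at 0.50 with the GC content of the arm probes, and that of the double mutant at 0.03. Whether GC content bears on these counts was not tested. With wild type 1 in place of the mutant, 1 arm gene was lower and 3 were higher, and the clr3 deletion gave 2 and 2. In 500-base windows joined into stretches, the double mutant had 55 lower stretches covering 65.0 kb and 12 higher stretches covering 8.5 kb, of 3935 windows. Of 1968 windows of 1 kb, 56 were lower and 7 higher in the double mutant. With wild type 2 in its place 55 were lower and 68 higher, and with wild type 1 in its place 1 was lower and 3 were higher.

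The 62 fallen genes were genes rich in new H3 in wild type: the median of their means over wild types 1 and 2 was 0.80, against 0.04 for all arm genes. Since a fall required the mutant to lie below all wild types, this median is partly set by the choice. Long noncoding RNA genes made up 67.7% of them, against 56.2% of all arm genes. Their ChIP signal alone was lower than on each of the 3 wild-type arrays in 56 of 62, and their input was higher than on wild type 3 in 46. Over all 2043 arm genes these counts were 712 and 1028. The 62 were chosen on the ratio that both channels make up, which favours these directions, so nothing is read from the counts. Of the 62, 33 lay at least 0.5 below each of the 3 wild-type arrays taken singly.

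The deepest fall on the arm lay upstream of gsf1, a gene linked to flocculation, the clumping of cells. Its upstream region is spanned by the noncoding genes SPNCRNA.1572 (chrII:3008602-3011536, plus strand) and SPNCRNA.1571 on the opposite strand. SPNCRNA.1572 stood at 1.26, 1.44 and 1.17 in wild type and at 1.25 in the clr3 deletion over 58 probes. It was at −0.39 in the double mutant, a fall of 1.56 on the log2 scale, or 2.96-fold. SPNCRNA.1571 fell by 1.43. The ChIP signal of SPNCRNA.1572 alone was −0.88, −1.30 and −1.43 against wild types 3, 1 and 2, and its input was 0.64, 0.33 and 0.36 higher. In the 250 bases from 1250 to 1000 before the start of gsf1 the difference reached −2.04. In the body of gsf1 itself the double mutant was at 0.38 and wild type at 0.56, 0.78 and 0.49.

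Falls also lay at genes of glycolysis, a list chosen with earlier results of these data known. Of 14 listed genes of glycolysis and fermentation 4 were measured and 3 fell, against 2.79% of all genes. The list median was −0.65, against −0.05 over all genes. tdh1, which encodes glyceraldehyde-3-phosphate dehydrogenase, stood at 0.75, 1.53 and 0.79 in wild type, 0.91 in the clr3 deletion and −0.04 in the double mutant, a fall of 0.83. eno101, the enolase gene, stood at 0.78, 1.26 and 0.46 in wild type, 0.38 in the clr3 deletion and −0.34 in the double mutant, a fall of 0.79. fba1, the gene of fructose-bisphosphate aldolase, fell by 0.51, from 0.51, 1.13 and 0.38 to −0.12. pfk1, the phosphofructokinase gene, was at −0.08, 0.66 and −0.06 in wild type and −0.09 in the double mutant. At all of them wild type 2 was the highest array.

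The noncoding gene SPNCRNA.1550, which runs over the upstream region of tdh1, fell by 1.01, from 1.26, 1.72 and 1.08 in wild type to 0.06. It lies with tdh1 in the longest lowered stretch, of 4000 bases. At tdh1 the ChIP signal alone was −0.04 against wild type 3, −0.50 against wild type 1 and −1.27 against wild type 2, and the input was 0.74, 0.28 and 0.26 higher. At eno101 the ChIP signal was −0.09, −0.79 and −1.04, and the input was 0.66, 0.31 and 0.52 higher, in the same order. Against wild type 3 the fall at both genes thus sat almost wholly in the input channel, and against the other wild-type arrays mostly in the ChIP channel. At fba1 the ChIP signal was −0.41, −0.67 and −1.13, and the input differed from wild type 3 by 0.06. The part of the input in these falls was not tested.

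The small heat shock gene hsp16, strongly induced by stress, was the protein-coding gene with the largest fall. It stood at 1.43, 1.40 and 1.48 in wild type, 1.37 in the clr3 deletion and 0.61 in the double mutant over 18 probes, a fall of 0.87 or 1.83-fold. The wild-type arrays differed among themselves by less than 0.1 there. The ChIP signal alone was −0.40, −0.27 and −0.63 against wild types 3, 1 and 2. Against wild types 3 and 1 this was only part of the fall in the ratio, and the rest lay in the input channel. The part of the input was not tested. The other measured chaperone genes did not fall: mas5 differed by −0.17 and the Hsp70 gene sks2 by −0.18. Of 4 measured genes of the core stress response, gpx1, which encodes glutathione peroxidase, fell by 0.58, from 0.96, 1.16 and 1.01 to 0.43. The fall at gpx1 was in the ChIP channel, with −0.74, −0.73 and −0.71 against wild types 3, 1 and 2. atf1, the gene of the stress transcription factor, stood at 0.15, 0.46 and 0.13 in wild type and 0.33 in the double mutant.

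The 200 bases before the annotated starts of hsp16 (chrII:2660993-2661192, minus strand), tdh1 (chrII:2807395-2807594, plus strand) and eno101 (chrII:2200996-2201195, plus strand) are printed from RefSeq (ASM294v3). They were chosen because the ratio of ChIP to input was lower over these upstream regions on the double mutant array. Capitals mark exact matches to TATAAA, taken here as the TATA box.
hsp16: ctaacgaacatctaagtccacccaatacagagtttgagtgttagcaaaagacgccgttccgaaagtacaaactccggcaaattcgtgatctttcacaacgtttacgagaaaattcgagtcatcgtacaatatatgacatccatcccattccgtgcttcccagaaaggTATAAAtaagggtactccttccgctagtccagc
tdh1: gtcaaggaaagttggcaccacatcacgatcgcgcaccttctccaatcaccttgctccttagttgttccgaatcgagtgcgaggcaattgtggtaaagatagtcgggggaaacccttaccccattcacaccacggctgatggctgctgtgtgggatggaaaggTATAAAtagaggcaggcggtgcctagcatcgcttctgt
eno101: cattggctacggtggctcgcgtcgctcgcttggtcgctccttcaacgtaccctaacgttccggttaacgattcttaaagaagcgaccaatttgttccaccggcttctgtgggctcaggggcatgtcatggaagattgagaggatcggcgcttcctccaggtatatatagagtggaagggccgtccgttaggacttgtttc
The match lies 33 to 28 bases before the start of hsp16 and 38 to 33 bases before that of tdh1. The eno101 window has no exact match but holds the similar run tatatata, which the search did not count. The missing match therefore does not show that eno101 lacks a TATA box. Both strands were also searched for TTCNNGAA, the core of the heat shock element, for TGACGT, the core of the cyclic AMP response element, and for CAGTCACA, the homolD box, with no match in these windows. TATAAA is held by 9 of the 18 promoters of fallen coding genes, by 34.3% of the 863 arm promoters and by 37% of all 5112. TGACGT is held by 3 of the 18 and by 3.94% of the arm promoters. TTCNNGAA and CAGTCACA are held by 0 of the 18, and by 5.91% and 2.32% of the arm promoters. These matches describe letters only.

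**Figure D4:**
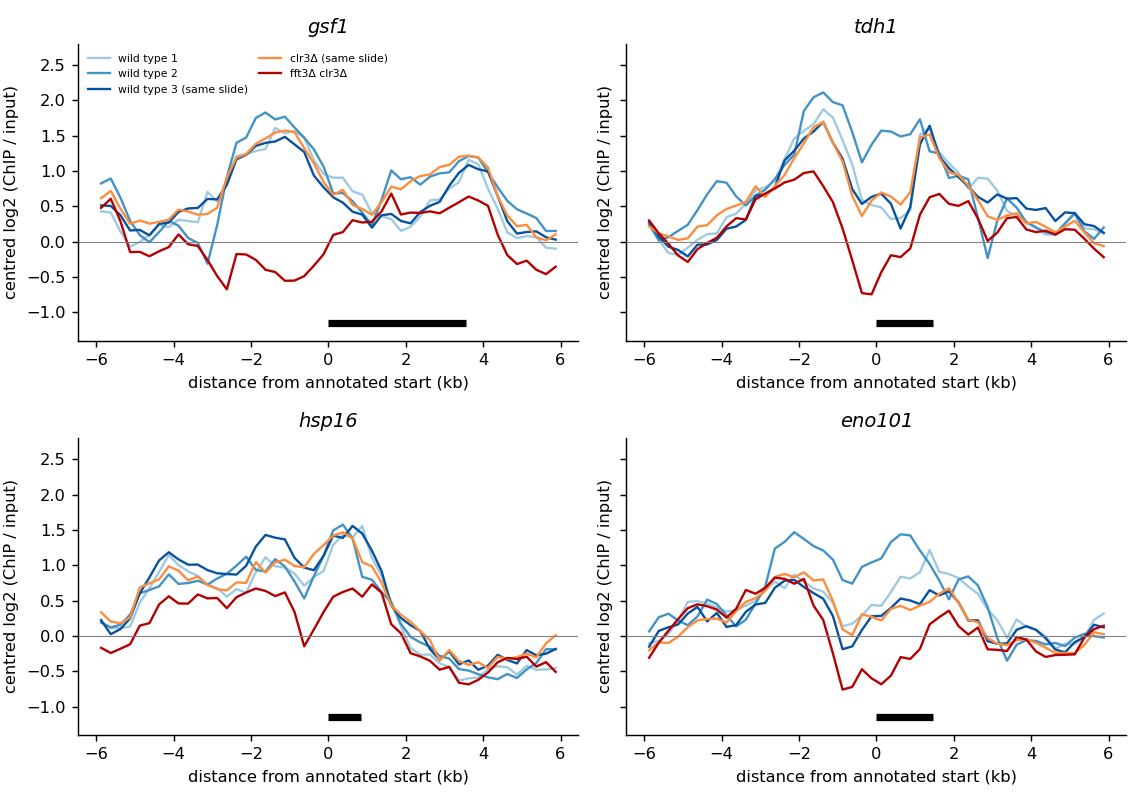
Centred log2 ratio of ChIP to input in 250-base means (vertical axes) against distance from the annotated start in kb (horizontal axes) at gsf1, tdh1, hsp16 and eno101, with 1 line per array and a black bar for the gene. The double mutant line runs below the wild-type lines upstream of gsf1, where it is at −0.55 against 1.48 to 1.77 at 1250 to 1000 bases before the start, and over the start of tdh1, the hsp16 gene and the eno101 gene.

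Of the histone genes 3 of 11 listed were measured and 0 fell. The double mutant was below the wild-type range at each. It was also below that range at 438 of 1149 long noncoding RNA genes of the arm and 16 of 25 ribosomal protein genes. Nothing is therefore read from this position. hht2, which encodes H3, stood at 1.60, 1.49 and 1.31 in wild type and 0.94 in the double mutant. hhf2, which encodes H4, stood at 0.76, 0.87 and 0.66 against 0.36. pht1, the H2A.Z gene, stood at −0.20, −0.14 and 0.05 against −0.23. The differences from wild type 3 were −0.37, −0.30 and −0.28.

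Other lists held few measured members and few calls. Of 25 ribosomal protein genes 1 rose (rpp202, in the mating-type region) and 0 fell, with a median of −0.04. Of 24 tRNA genes 1 rose and 0 fell, with a median of 0.14. The 7 5S rRNA genes of the arm had 0 calls and a median of −0.12. Of 14 snoRNA and snRNA genes 1 fell, snu1, the U1 small nuclear RNA gene, from 0.79, 0.82 and 0.86 in wild type to 0.31. Genes of meiosis (4 measured), replication (3), iron (2), the cell wall (2) and the cytoskeleton (1) had 0 calls. The meiotic cohesin gene rec8 differed by −0.28, the meiotic transcription factor gene mei4 by 0.13 and the actin gene act1 by −0.10. Of the heterochromatin list, the SHREC gene clr1 differed by −0.12 and tas3, of the RITS complex, by −0.16, and tlh2 alone rose.

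The long noncoding RNA genes below were named by the size of their fall, so that they fell was set by the choice. SPNCRNA.1480 fell by 1.09, from 0.56, 1.19 and 1.04 to −0.05. SPNCRNA.5917 and SPNCRNA.5916, upstream of aly2, fell by 0.86 and 0.76, from between 0.99 and 1.10 on the wild-type arrays to 0.15 and 0.23. SPNCRNA.1534 fell by 0.85, SPNCRNA.540, next to hsp16, by 0.84, SPNCRNA.397 by 0.84, SPNCRNA.5867 by 0.83 and SPNCRNA.5819, next to gpx1, by 0.81. SPNCRNA.5790, inside hsp78, a gene for a mitochondrial chaperone, is an exception in level: it was already near the median in wild type (−0.13, 0.04 and −0.08) and fell to −0.87.

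The few rises on the arm were smaller. rtn1, which encodes a reticulon of the endoplasmic reticulum, rose by 0.65, from 0.07, 0.28 and −0.22 in wild type to 0.43, with the clr3 deletion at 0.29. Its ChIP signal alone was 0.69 above wild type 3 but 0.01 and −0.15 from wild types 1 and 2, so the rise depended on the reference. SPNCRNA.5100, which overlaps rtn1, rose by 0.62. prl103 rose by 0.60, SPNCRNA.5351 by 0.59 and SPBC337.02C by 0.53. prl103 overlaps mat1-Mi and lies at the edge of the mating-type region.

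**Figure D5:**
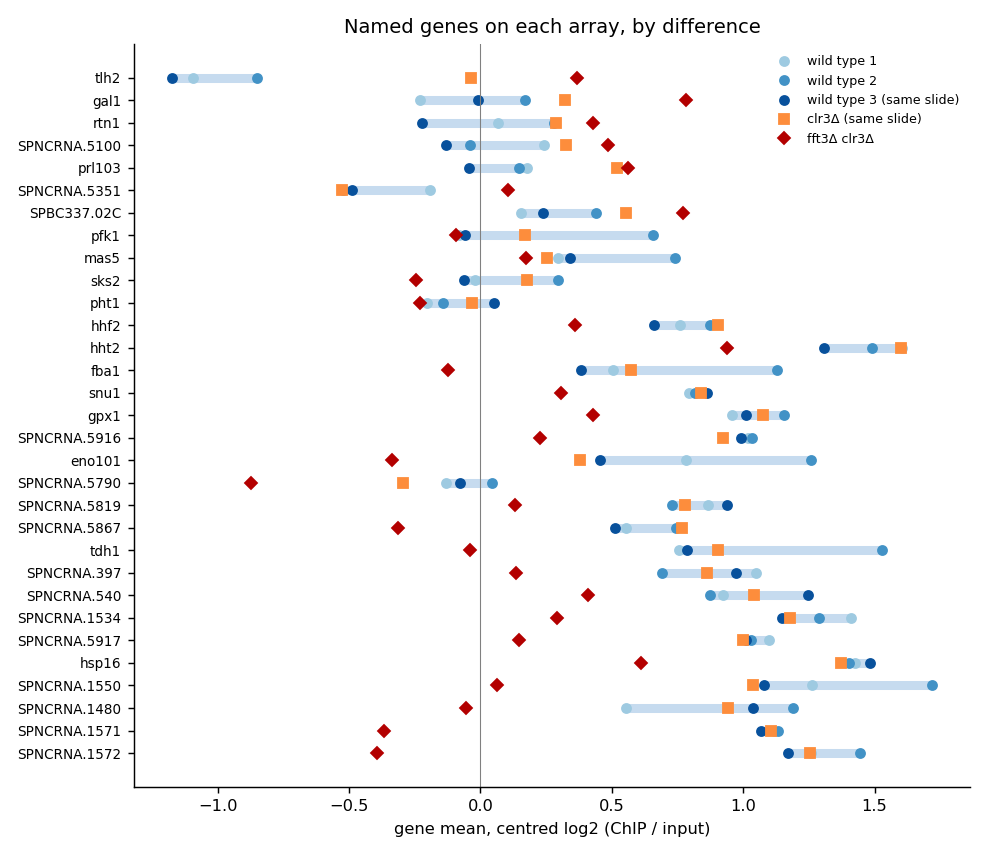
Gene means of the centred log2 ratio of ChIP to input (horizontal axis) for arm genes named by the size of their change and for some members of the gene lists (vertical axis), with 1 symbol per array and a bar over the range of the 3 wild-type arrays. The fallen genes at the bottom lie left of the wild-type bar, with SPNCRNA.1572 at −0.39 against 1.17 to 1.44, and tlh2 at the top lies right of it, at 0.37 against −1.17 to −0.85.

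By position on the arm, the mean difference was −0.06 over protein-coding genes, −0.12 between convergent, −0.13 between divergent and −0.14 between tandem genes. Wild type 2 differed from wild type 3 by 0.06 over coding genes and by −0.20, −0.23 and −0.16 in the same intergenic classes, so the intergenic lowering of the double mutant lay within the spread of wild type. Around the starts of the 863 coding genes, in 100-base steps out to 1000 bases, the difference ran from −0.11 to −0.06, and around their ends from −0.12 to −0.06. In the tenth of these genes richest in new H3 on wild types 1 and 2 (87 genes), it ran from −0.37 to −0.25 around starts and from −0.31 to −0.20 around ends. In the other 776 genes it ran from −0.08 to −0.03 around starts and from −0.10 to −0.04 around ends.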

How the data were processed

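Each deposited array file holds green and red intensities. They were read by Feature Extraction, which the submitters' processing notes name, in version 10.7.3.1 (slide 1) and 12.0.3.1 (the other slides), per the file headers. The processed intensities were background-subtracted and dye-normalized (linear) by the authors' scanner software, per the file headers, and fragments were 500 to 1000 bp long, per the labels' protocols, which blurs edges. The authors' deposited series table holds log2 values equal to the log2 ratio of the processed signals within 4.9e-08, neither centred nor scaled, with medians from −0.043 to 0.018. Other deposited columns were flags of 0 or 1. For the probe coordinates, no build is given in the sources used here.

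The probes were therefore set on ASM294v3 by the offset at which mean log2 input best followed GC content (900 and 1800 bases left and right of centromere 2, and 0 on chromosome III). The correlation at these offsets was 0.645, 0.636 and 0.681 on chromosome II against at most 0.358 elsewhere, and 0.452 against 0.353 on chromosome III, where placing is weak. Of 43993 probes, 42972 were placed, 824 lie on a mating-type contig and 197 were not used. A probe counted as repeated where its central 40 bases occur more than once in the reference. Gene names and positions are those of the reference. Every array had at least 99.4% of probes well above background and 0 saturated spots.

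Log2 ratios of red to green were centred on the median of each array without spots marked as nonuniform or population outliers, and averaged over regions, genes, windows and bins. The number of arrays limits the precision. There was no test, because the mutant has 1 array. The largest changes in each direction and region, and the measured members of the gene lists (the 2 with the largest differences in lists of over 6), were named. The members and lists were chosen with earlier results of these data known. The alternatives were normexp (offset 50, limma 3.58.1 in R 4.3.3, on median signals because the files used hold no mean signal), loess, quantile normalization, other scaling, centring, references, folds and probe sets, and leaving out each wild-type array. Calculations used Python 3.11.15, numpy 2.4.6 and pandas 2.3.3, and figures matplotlib 3.10.9. The procedure was tested on simulated data.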

Additional observations from a re-analysis of the deposited data

How the results depend on the processing

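Of 187 values of the main results under an alternative, 140 moved by less than the wild-type spread or, for counts, stayed within 1.5 times, 46 moved more and 1 value past the 0.5 fold changed sign, the central core, at −0.80 with normexp. Tf2, whose difference was below that fold, also changed sign under 2 of the alternatives, counted among those that moved. Also with normexp, the outer repeats differed by 2.04, ribosomal DNA by 0.47 and the arm by −0.032, the slope over all probes was 0.34 and the count of genes lower was 102. With loess the outer repeats differed by 1.49, the subtelomere by 0.74, ribosomal DNA by 0.15, Tf2 by −0.39, the opposite sign, and the arm by −0.065. With quantile normalization the core differed by 0.016, ribosomal DNA by 0.59, Tf2 by 0.36 and the arm by −0.092, and the slope over all probes was 0.54. With equal spread the outer repeats differed by 2.02, and with the arm as centre the arm differed by −0.024. With probes found once the outer repeats differed by 1.58, the subtelomere by 0.79, the slope over all probes was 0.62 and 32 genes were higher, since fewer genes were tested. Against the mean of 3 wild types the outer repeats differed by 2.00, Tf2 by 0.13 and the arm by −0.080. Against the mean of wild types 1 and 2 the outer repeats differed by 2.05, the core by 0.94, the inner stretch of chromosome III by 0.60, Tf2 by 0.083, the arm by −0.083 and the top bin by −0.42. Wild types 1 and 2 also made the bins, which enlarges that top-bin value. A fold of at least 1 left 68 genes higher and 4 lower. The ratio of SDs in place of the slope was 0.81 over all probes and 0.87 on the arm. With the ChIP channel alone, chosen after seeing the data, the outer repeats differed by 1.46, the subtelomere by 1.27, ribosomal DNA by 3.29, the inner stretch of chromosome III by 0.84, Tf2 by −0.22, the opposite sign, and the arm by −0.0054. The causes of these moves were not tested unless stated.

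Leaving out each wild-type array in turn, with the mean of the remaining 2 as the reference in place of wild type 3, changed both choices and gave 1.97 to 2.05 at the outer repeats, 0.90 to 1.00 at the subtelomere, 0.63 to 0.94 at the core, 0.75 to 1.08 at the right mating-type interval, 0.64 to 0.69 at ribosomal DNA, 0.51 to 0.60 on the inner stretch of chromosome III, 0.083 to 0.18 at Tf2, −0.083 to −0.077 on the arm and −0.42 to −0.34 in the top bin. Because wild types 1 and 2 made the bins, references that hold them enlarge the top-bin values. The slopes were 0.39 to 0.45 over all probes and 0.59 to 0.66 on the arm, with 103 to 118 genes higher and 65 to 82 lower. Of 1041 values of 76 named genes, 848 stayed, 192 moved and 1 changed sign (SPRRNA.47, −0.036 with loess). No paired analysis was possible because the double mutant has 1 array. Repeated probes, low ChIP signal at the core and unequal DNA at the mating-type and ribosomal loci limit those values.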
